A study of Microcebus murinus with 18 samples.

Results

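Calumenin (CALU), the reticulocalbins RCN1, RCN2 and RCN3, and SDF4 form a small family of proteins with calcium-binding EF-hand motifs that live in the secretory pathway. Their transcripts were described in the temporal cortex of the grey mouse lemur (Microcebus murinus), a small primate that ages in captivity and in which a minority of old animals develop amyloid plaques. The members were all probe sets of the human HG-U133 Plus 2.0 array annotated to one of these 5 symbols: 14 probe sets of the 54613 on the array other than controls, of which 5 were among the 14911 that passed the filter on low signals. Each is named by its gene symbol joined to its Affymetrix identifier. CALU had 5 probe sets, RCN1 had 1, RCN2 had 2, RCN3 had 2 and SDF4 had 4. CALU heads the family here because the study picked CALU_200757_s_at out of these same arrays for its differences between the groups. The CALU values below are therefore a description and carry no test, and tests are given for its relatives only.

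CREC-family proteins, as this group is called, are held inside the cell along the route from the endoplasmic reticulum (ER) to the Golgi, and some are also secreted. Calumenin is known from work in rodents and cultured cells as an inhibitor of the vitamin K-dependent gamma-carboxylation of proteins. The reticulocalbins are soluble proteins of the ER, and SDF4, also called Cab45, is a protein of the Golgi lumen that takes part in sorting secreted cargo. All of them bind calcium with low affinity.

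The study asked which transcripts of this cortex go with healthy ageing and which with an Alzheimer-like state. RNA from the temporal cortex of 18 animals born in one captive colony was hybridized, 1 array for each animal. The AD-like group held 2 old females with amyloid plaques and cortical atrophy, the old group 10 animals without such disease, of which 7 were female and 3 male, and the young adult group 4 females and 2 males; the labels give age as a category. No group carried a transgene or received a treatment, and animals are named below by sex and label number (F1, M1). With 2 AD-like animals, both female, every comparison with that group rests on those 2 cortices. In bulk tissue, fewer cells of a type and less RNA per cell cannot be told apart.

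Signals are the deposited MAS5 values, in arbitrary units and scaled so that the trimmed mean of each array is close to 100. The arrays are human and the RNA is from a lemur, so group differences were taken within each probe set. Levels of different probe sets are not comparable as amounts of RNA, and bright or dim refers to array signal alone. The choice of a gene's brightest probe set and the marker sums still rest on such levels. Array medians lay between 30.8 and 54.4. On 4 arrays (AD-like F2, old M1 and M2, young adult M2) the spiked poly-A control RNAs were near background, where the mean control signal did not exceed 29.0, while the other 14 arrays had 139 or more. The GAPDH control ratio (3' over 5' probe set, log2), a measure of how far the labelled RNA reached toward the 5' end, was 0.32 and 0.61 on the AD-like arrays, -0.10 to 1.56 on the old and 0.14 to 0.68 on the young adult arrays, with old F4 (1.56) and old F6 (1.22) highest. Neuronal markers were bright in every array: 11 of 12 listed genes were on the array and all 11 passed the filter, with summed signals of 27675 and 55101 in AD-like, 37586 to 63165 (median 55438) in old and 18153 to 64438 (median 40724) in young adult cortex. Of 7 astrocyte markers 5 passed the filter, with GFAP and S100B failing it, and all 7 oligodendrocyte markers on the array passed. By contrast the human probes for 7 of 8 microglial markers did not pass.

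CALU_200757_s_at was highest in old cortex. Its signal was 349 and 339 in the AD-like animals (344 ± 6.86, mean ± SD, n = 2). In the old animals it ran from 423 (F6) over a median of 476 to 676 (M2), with a mean of 505 ± 88.6 (n = 10). In the young adults it ran from 326 (M1) over a median of 366 to 406 (F4), with a mean of 369 ± 34.7 (n = 6). All 10 old animals lay above all 6 young adults, and both AD-like animals lay below all 10 old animals but inside the young adult range.

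The old mean was 1.37 times the young adult mean, and the AD-like mean was 0.680 times the old mean and 0.933 times the young adult mean. On the log2(signal + 16) scale the differences of the group means were 0.43 (SE 0.18) for old minus young adult, -0.52 (SE 0.27) for AD-like minus old and -0.09 (SE 0.28) for AD-like minus young adult. Because this probe set was selected on these contrasts, nothing is read from the separation itself. Among the 14911 probe sets that passed the filter, 3 (0.0201%) had every old animal above every young adult, and 242 (1.62%) had both AD-like animals below every old animal. The other 2 of the 3, named after their values were seen, were ATP5ME, a subunit of the mitochondrial ATP synthase, and KAZN.

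**Figure D1:**
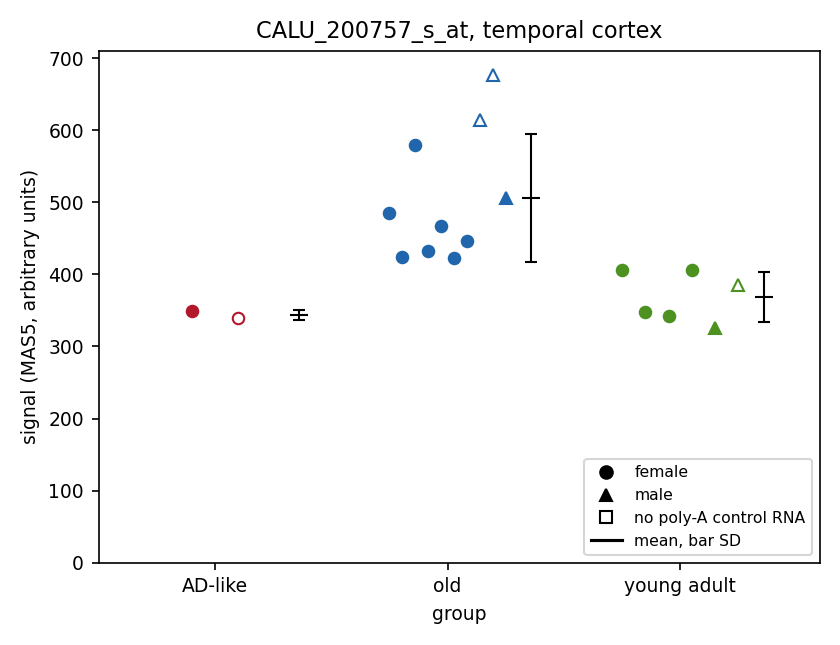
Signal of CALU_200757_s_at (y axis, arbitrary units) in each AD-like, old and young adult animal, with circles for females, triangles for males, open symbols for the 4 arrays lacking poly-A controls, and the group mean ± SD at the right of each group. The AD-like animals at 349 and 339 lie below the 10 old animals, which lie between 423 and 676 and above the 6 young adults at 326 to 406.

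Old cortex was also highest within each sex and among the arrays that carried the poly-A controls. The full separation given above fixes this for any subset, so the values below only describe the subsets. In females, the AD-like signals of 339 and 349 compared with 423 to 579 in 7 old (465 ± 55.3) and 342 to 406 in 4 young adults (375 ± 35.3). In males, 505, 615 and 676 in the old animals compared with 326 and 385 in the young adults. The old males were thus the high end of the old group together with old F3 (579), and 2 of these 3 males were on arrays without poly-A controls. Among the 14 arrays with those controls, the AD-like signal was 349 (n = 1), the 8 old animals had 423 to 579 (470 ± 53.1) and the 5 young adults had 326 to 406 (365 ± 37.8). The difference of the old minus young adult difference between males and females was 0.43 on the log2 scale (SE 0.35), a description with no test.

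In none of the other 4 CALU probe sets did the groups separate in this way. Probe set CALU_214845_s_at had 495 and 817 in the AD-like animals. It ran from 236 (F6) over a median of 502 to 1050 (F3) in the old and from 294 (M1) over a median of 689 to 945 (F2) in the young adults. The old range enclosed the young adult range, and the AD-like signals lay inside both. Of the 10 old animals, 2 lay above the young adult median, 1 above every young adult and 2 below every one. The log2 differences were -0.27 (SE 0.32) for old minus young adult and 0.37 (SE 0.48) for AD-like minus old. Both signs were opposite to those of CALU_200757_s_at, and neither difference was larger than its SE. The 2 comparisons share the old animals, so a high or low old group moves both in opposite directions.

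Probe set CALU_200756_x_at was spread widely in the old group (coefficient of variation 50.5%) and little in the young adults (11.2%). The AD-like animals had 381 and 581. The old animals ran from 112 (F6) and 128 (F4) over a median of 290 to 608 (F1), and the young adults from 330 over a median of 354 to 428. In this probe set 5 of 10 old animals lay below every young adult and 2 above every one, and the log2 differences were -0.44 (SE 0.30) for old minus young adult and 0.77 (SE 0.45) for AD-like minus old. Both signs were again opposite to those of CALU_200757_s_at.

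In the 2 dim CALU probe sets the groups overlapped. Probe set CALU_200755_s_at had 78.2 and 119 in the AD-like animals, 20.0 to 183 in the old and 28.5 to 225 in the young adults, with means of 98.8 in AD-like, 96.9 in old and 90.6 in young adult cortex. Probe set CALU_229549_at, which did not pass the filter, had 90.1 and 11.7 in the AD-like animals, 4.15 to 177 in the old and 21.8 to 168 in the young adults. Their log2 differences were 0.14 (SE 0.43) and 0.02 (SE 0.50) for old minus young adult, and 0.25 (SE 0.65) and -0.42 (SE 0.75) for AD-like minus old. In each, the range within the old group was wider than any distance between group means.

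**Figure D2:**
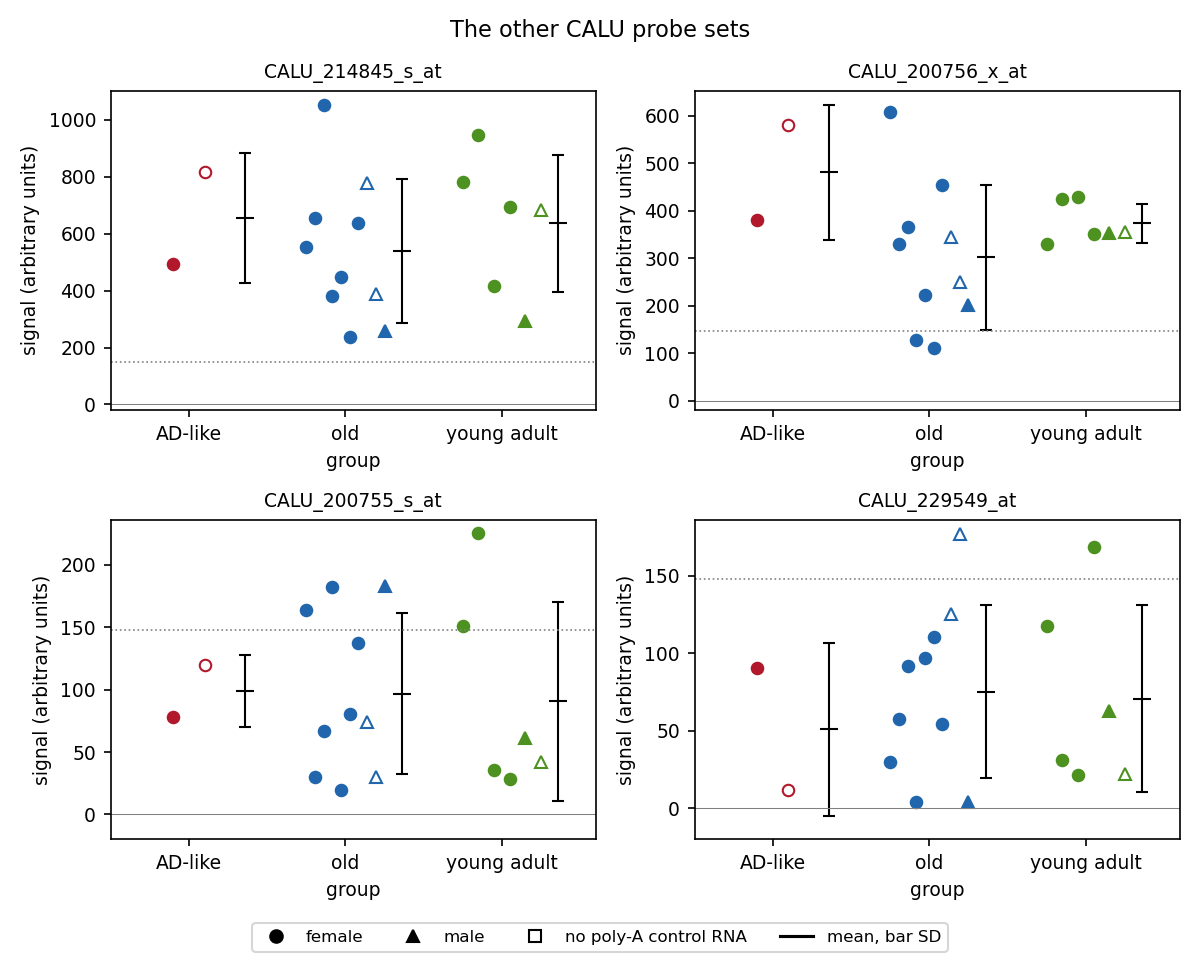
Signal of the other 4 CALU probe sets (y axes, arbitrary units, each with its own range) in AD-like, old and young adult animals, drawn with the same symbols as for CALU_200757_s_at. The dotted line is the lowest third-highest signal that passed the filter (147.53). In all 4 panels the old and young adult animals overlap.

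Across the 18 arrays the CALU probe sets did not rise and fall together. On the log2 scale the Pearson correlation of CALU_200757_s_at was 0.02 with CALU_214845_s_at, -0.25 with CALU_200756_x_at and -0.12 with CALU_200755_s_at. The pair CALU_214845_s_at and CALU_200756_x_at had 0.64. After the group means were removed, CALU_200757_s_at had 0.35 with CALU_214845_s_at, 0.20 with CALU_200756_x_at and -0.20 with CALU_200755_s_at. These are descriptions over 18 arrays that share their scaling.

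The GAPDH control ratio moved with 2 of the CALU probe sets. Its Pearson correlation over the 18 arrays was -0.78 with CALU_200756_x_at, -0.63 with CALU_214845_s_at and 0.02 with CALU_200757_s_at. Without old F4 and old F6, the arrays of highest ratio, it was -0.47, -0.53 and 0.05 over 16 arrays. With the group means removed, the correlation was -0.79, -0.61 and -0.34 over the 18 arrays. With the ratio as a covariate the old minus young adult difference was -0.14 for CALU_200756_x_at and -0.015 for CALU_214845_s_at, against -0.44 and -0.27 without it. That of CALU_200757_s_at under the same covariate was 0.47, against 0.43 without it. The AD-like minus old differences kept their opposite signs under the covariate. They were 0.63 for CALU_200756_x_at, 0.25 for CALU_214845_s_at and -0.54 for CALU_200757_s_at, against 0.77, 0.37 and -0.52 without it.

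**Figure D3:**
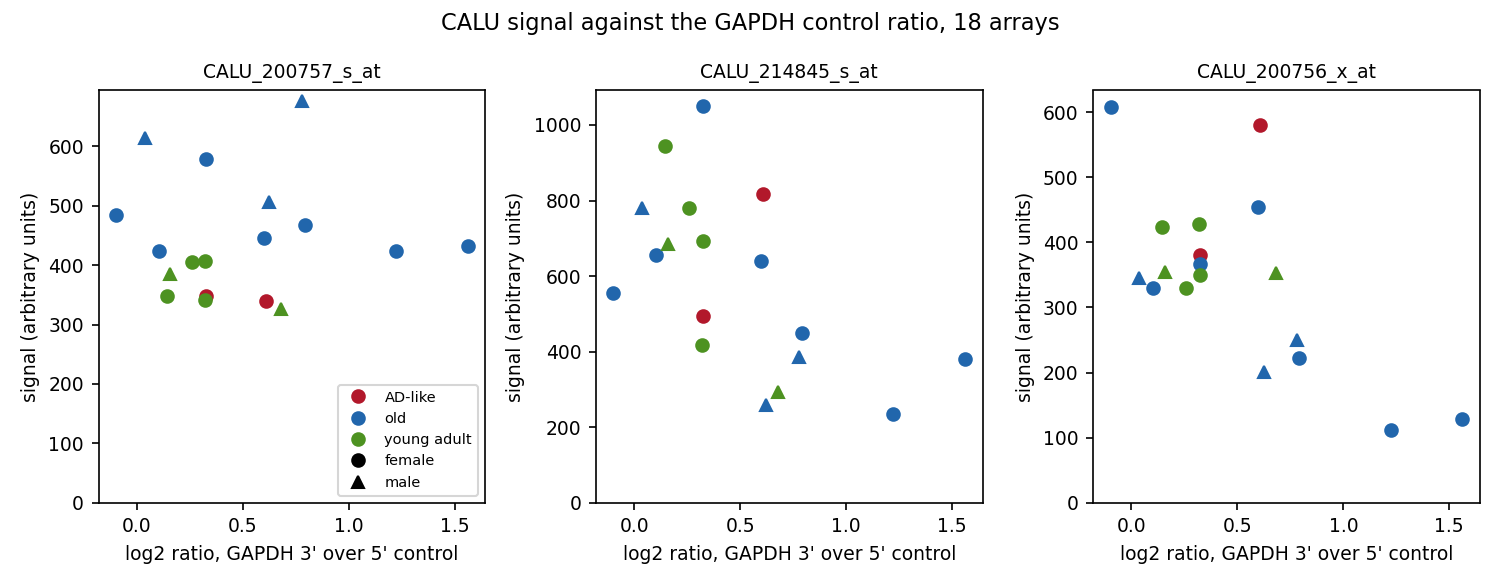
Signal of 3 CALU probe sets (y axes, arbitrary units) against the GAPDH control ratio (3' over 5', log2, x axes) on 18 arrays, in red for AD-like, blue for old and green for young adult, with circles for females and triangles for males. The arrays of highest ratio, old F4 and F6, have the lowest signals of CALU_200756_x_at (128 and 112) but signals of 432 and 423 for CALU_200757_s_at.

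RCN2 was the only relative with a probe set that passed the filter. RCN2, a reticulocalbin of the ER, had 315 and 193 in the AD-like animals for RCN2_201485_s_at. It ran from 116 (F7) over a median of 236 to 308 (M2) in the old animals and from 54.0 (M1) over a median of 174 to 303 (M2) in the young adults. Means were 254 ± 86.1 (n = 2), 229 ± 64.8 (n = 10) and 181 ± 91.8 (n = 6) for AD-like, old and young adult cortex. The 3 groups overlapped: 8 of 10 old animals lay above the young adult median, but 1 above every young adult.

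The log2 differences of RCN2_201485_s_at were 0.42 for old minus young adult (SE 0.30, 95% interval -0.20 to 1.04, limma adjusted p = 0.870), 0.16 for AD-like minus old (SE 0.45, interval -0.77 to 1.09, adjusted p = 0.984) and 0.58 for AD-like minus young adult (SE 0.47, interval -0.40 to 1.55, adjusted p = 0.9995). None passed the threshold of 0.05. The old minus young adult difference was of the size of that of CALU_200757_s_at, but young adult M1 (54.0) weighed on it, and without that animal it was 0.15. The AD-like minus old difference was -0.17 without AD-like F1. Its male minus female contrast of the age difference was 0.51 (SE 0.65, adjusted p = 0.989).

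Over all 14911 probe sets, limma called 0 (0%) for old minus young adult, 1 (0.00671%) for AD-like minus old and 0 (0%) for AD-like minus young adult at an adjusted p under 0.05. The 1 called, named after its values were seen, was GADD45G, which responds to growth arrest and DNA damage. With 1 animal left out, the AD-like minus old count was between 0 and 19, with 19 called without AD-like F1, 4 without AD-like F2 and 4 without old M2. At an unadjusted p under 0.05 it found 520 higher (3.49%) and 363 lower (2.43%) for old minus young adult, 188 higher (1.26%) and 539 lower (3.61%) for AD-like minus old, and 647 for AD-like minus young adult. The 2-group test that the methods name beside SAM, run here on linear signals, gave 904, 768 and 538 for the 3 comparisons at an unadjusted p under 0.05 and 0 in each after a Benjamini-Hochberg adjustment. RCN2_201485_s_at was in none of these sets.

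The second RCN2 probe set, RCN2_201486_at, did not follow the first. It was dim, with 45.3 and 59.1 in the AD-like animals, 4.81 to 60.5 in the old and 12.1 to 88.6 in the young adults. No old animal was above the young adult median of 61.6. Its log2 difference for old minus young adult was -0.41 (SE 0.33), against 0.42 for RCN2_201485_s_at.

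RCN1, RCN3 and SDF4 had 7 probe sets in all and none passed the filter, so they were fitted only together with all 54613 probe sets. RCN1, an ER reticulocalbin, had 58.8 and 23.3 in the AD-like animals, 13.8 to 141 (median 30.4) in the old and 6.75 to 130 (median 52.7) in the young adults. A single animal in each of the 2 larger groups stood at the top: old M3 at 141 and young adult F3 at 130. The other old animals had at most 58.5, and the log2 differences were -0.31 (SE 0.37) for old minus young adult and 0.04 (SE 0.55) for AD-like minus old.

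RCN3, the reticulocalbin known in mice for its role in collagen-secreting cells and lung, had 2 probe sets. Probe set RCN3_219102_at had 30.4 and 65.3 in the AD-like animals, 18.7 (F3) to 219 (F4) with a median of 83.8 in the old, and 17.7 to 141 with a median of 93.0 in the young adults. Both AD-like signals lay below both medians and above the lowest old animal. Probe set RCN3_61734_at had 32.7 and 17.4 in the AD-like animals, 19.1 to 81.1 in the old and 18.7 to 78.8 in the young adults, with AD-like F2 below every other animal. The AD-like minus old differences were -0.74 (SE 0.55, adjusted p = 0.940) and -0.47 (SE 0.42, adjusted p = 0.955), and those for old minus young adult were 0.12 in both (SE 0.36 and 0.28).

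SDF4 gave 4 probe sets, of which SDF4_224472_x_at came nearest to the filter. It had 86.3 and 67.0 in the AD-like animals, 45.4 to 147.8 (median 114) in the old and 33.4 to 184 (median 109) in the young adults. The AD-like signals lay below the median of both other groups but inside their ranges. Probe set SDF4_217855_x_at had 62.7 and 37.7 in the AD-like animals, 26.4 to 152 in the old and 16.8 to 104 in the young adults, and 4 of 10 old animals were above every young adult. Probe sets SDF4_221972_s_at and SDF4_232032_x_at had highest signals of 135 and 81.7, and the groups overlapped in both. The AD-like animals had 72.1 and 2.96 in SDF4_221972_s_at.

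Across SDF4 the log2 differences lay between 0.07 (SDF4_224472_x_at) and 0.44 (SDF4_217855_x_at) for old minus young adult, and between -0.59 (SDF4_221972_s_at) and 0.20 (SDF4_232032_x_at) for AD-like minus old. Of the 9 probe sets of the 4 relatives, 7 had a positive and 2 a negative difference for old minus young adult, with a median of 0.12. For AD-like minus old 4 were positive and 5 negative, with a median of -0.24. The 4 SDF4 probe sets, which are of 1 gene, were all among the 7, so these are not independent counts. Over the 14911 probe sets that passed the filter, 8005 and 7207 were positive. None of the 9 was at an unadjusted p under 0.05 in limma in any of the 3 comparisons. The fit on all 54613 probe sets had 5.36% for old minus young adult, 5.74% for AD-like minus old and 4.93% for AD-like minus young adult. That fit called 0% at an adjusted p under 0.05 in each comparison, and the lowest adjusted p among the relatives was 0.940. Signals just under and over the filter limit of 147.53, taken on the third-highest animal, were 142 for SDF4_224472_x_at, 141 for RCN3_219102_at and 182 for CALU_200755_s_at.

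**Figure D4:**
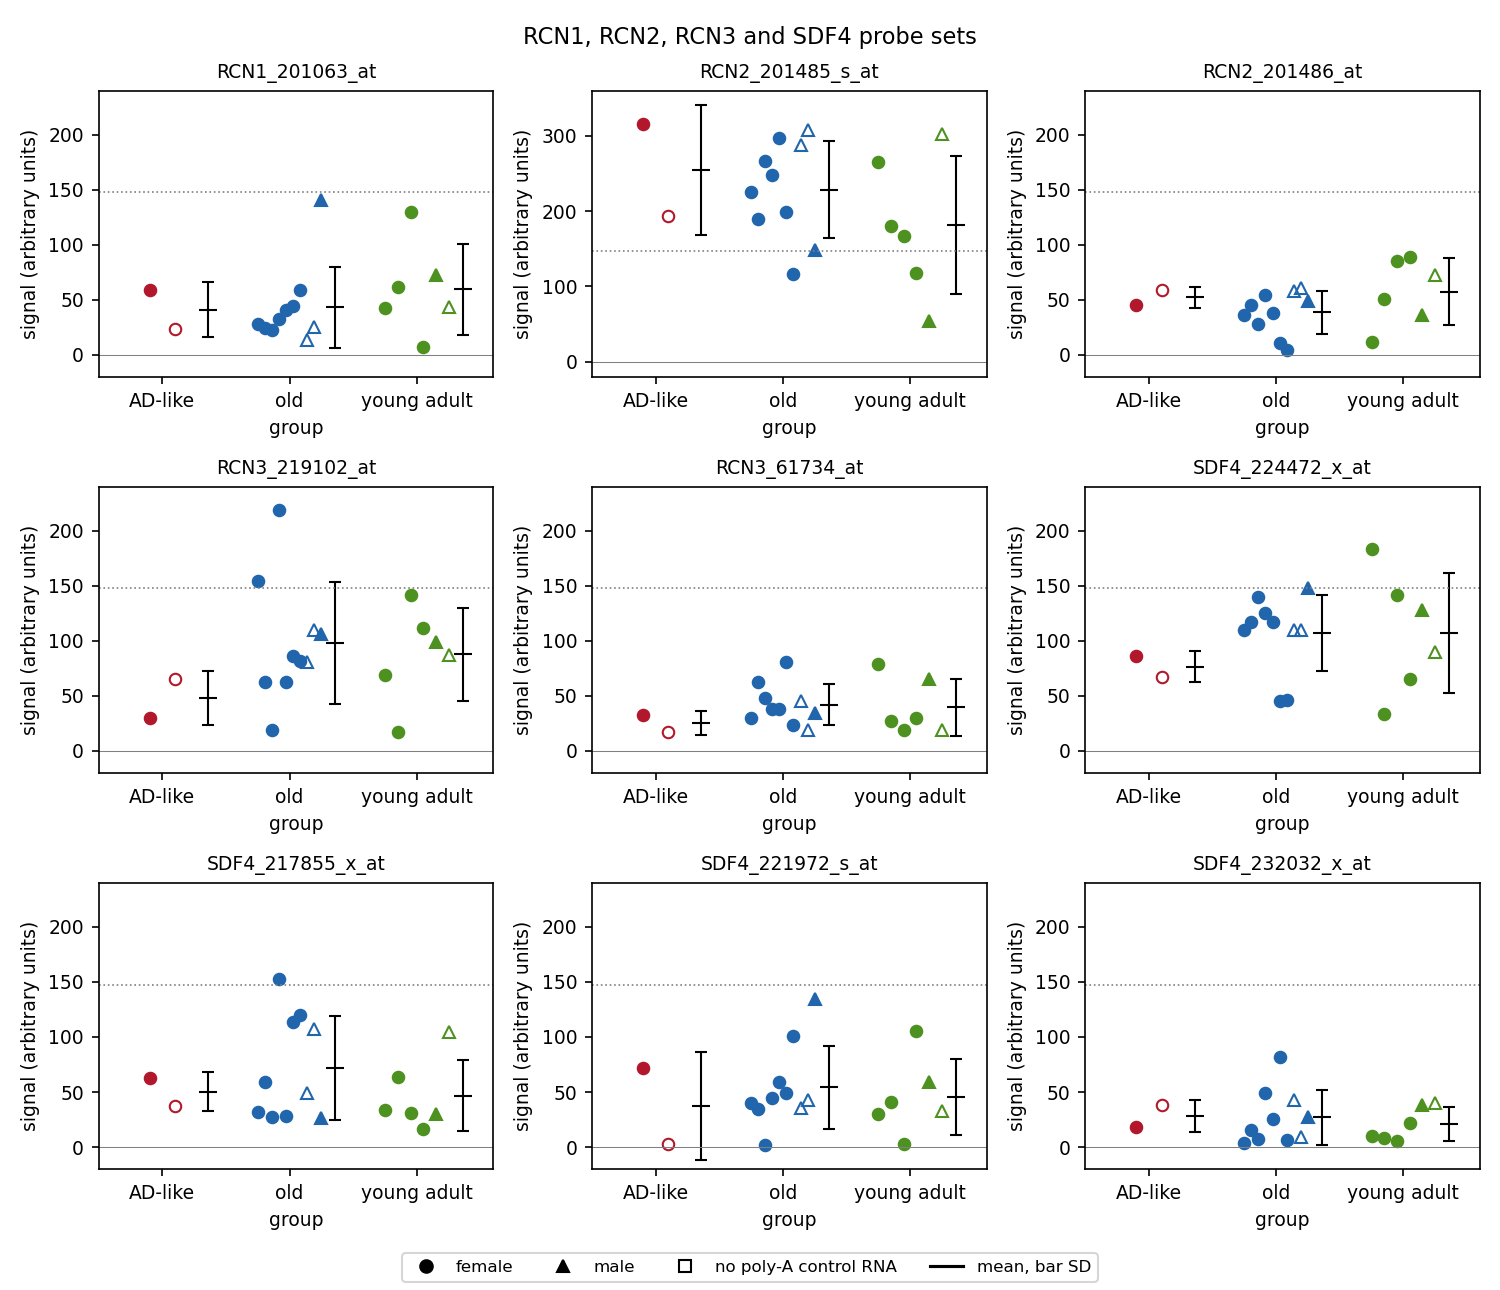
Signal of the 9 probe sets of RCN1, RCN2, RCN3 and SDF4 (y axes, arbitrary units) in AD-like, old and young adult animals, with circles for females, triangles for males, open symbols for the 4 arrays lacking poly-A controls and the mean ± SD at the right of each group. RCN2_201485_s_at is the 1 panel whose animals lie mostly above the dotted filter limit (147.53), and the groups overlap in every panel.

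**Figure D5:**
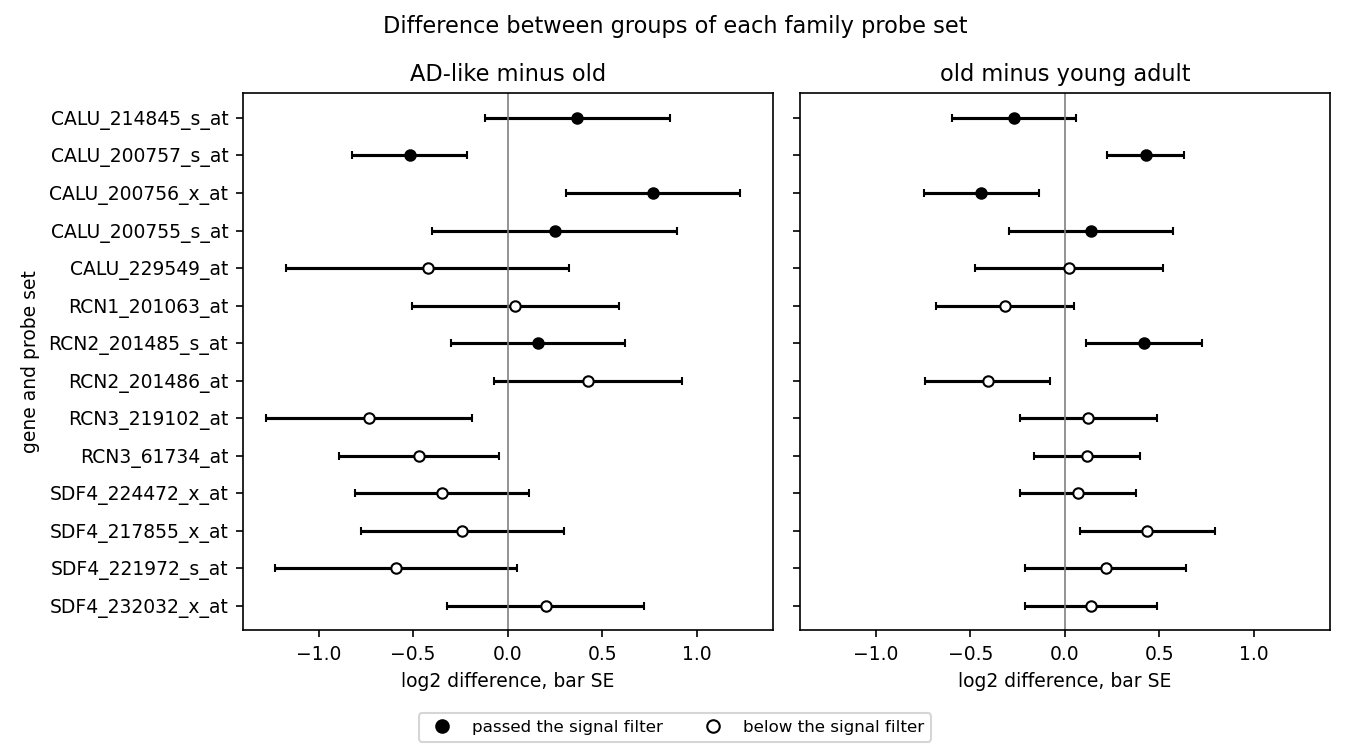
Log2 difference with its SE (x axes) of each of the 14 family probe sets, AD-like minus old at left and old minus young adult at right, from the fit on all probe sets, with filled points for the 5 that passed the filter. CALU_200757_s_at (-0.52 and 0.43) and CALU_200756_x_at (0.77 and -0.44) have opposite signs in both comparisons.

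Genes of the pathways around the family were counted from 4 lists. Of 13 genes of the vitamin K cycle and carboxylation, 7 passed the filter, 6 of them with a positive old minus young adult difference and 2 with a positive AD-like minus old difference. Over all 14911 probe sets that passed, 8005 and 7207 were positive. The medians of the list were 0.23 and -0.42, against 0.03 and -0.02 over all that passed. At an unadjusted p under 0.05 in limma, 1 was higher in old than in young adult cortex and 2 had lower signals in the AD-like animals than in the old. The shares over all that passed, for this and the lists below, were 3.49% higher and 2.43% lower for old minus young adult. For AD-like minus old they were 1.26% higher and 3.61% lower. Counts this small in so short a list cannot be told from those shares. No gene of the 4 lists passed after adjustment in either comparison.

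VKORC1 and VKORC1L1 encode the vitamin K epoxide reductases, which recycle the cofactor that the carboxylase uses. VKORC1L1 had 160 ± 132 in AD-like, 228 ± 51.6 in old and 152 ± 95.3 in young adult cortex (old minus young adult 0.72, SE 0.32, limma adjusted p = 0.837). VKORC1 had 72.7 ± 70.1 in AD-like, 142 ± 40.0 in old and 100 ± 51.9 in young adult cortex (old minus young adult 0.53, SE 0.31, adjusted p = 0.857; AD-like minus old -1.05, SE 0.47, adjusted p = 0.971). GAS6, a carboxylated ligand of the TAM receptors, had 198 and 439 in AD-like, 302 to 613 in old and 416 to 582 in young adult cortex (AD-like minus old -0.74, SE 0.32, adjusted p = 0.971). In all 3 the 2 AD-like animals stood far apart from each other, VKORC1L1 at 66.0 and 253, VKORC1 at 23.2 and 122.

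Of 34 ER chaperones and folding enzymes, 24 passed the filter, 11 with a positive old minus young adult difference (median -0.01) and 12 with a positive AD-like minus old difference (median -0.02), and 0 were at an unadjusted p under 0.05 in either comparison. The smallest p belonged to the disulfide isomerases PDIA3 and PDIA4 for old minus young adult (-0.50, SE 0.27, and -0.60, SE 0.35), and to FKBP2, a prolyl isomerase, and HYOU1, a chaperone of the ER, for AD-like minus old (-1.24, SE 0.62, and -0.87, SE 0.44). Limma adjusted p values of these were 0.849, 0.855, 0.971 and 0.971.

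Of 29 genes of ER retention and early secretory transport, 24 passed the filter, 13 with a positive old minus young adult difference (median 0.02) and 12 with a positive AD-like minus old difference (median 0.01). SEC61B, a subunit of the translocon, was the 1 gene of this list at an unadjusted p under 0.05, with 1383 ± 639 in AD-like, 2010 ± 424 in old and 1438 ± 423 in young adult cortex (old minus young adult 0.50, SE 0.24, adjusted p = 0.837; AD-like minus old -0.58, SE 0.36, adjusted p = 0.971). SSR4, of the translocon-associated complex, followed for old minus young adult (0.53, SE 0.32) and ERGIC3, of the ER-Golgi intermediate compartment, led for AD-like minus old (-0.75, SE 0.37). Of 25 genes of calcium handling in the secretory pathway, store-operated calcium entry included, 14 passed, 5 with a positive old minus young adult difference (median -0.13, against 0.03 over all probe sets) and 7 with a positive AD-like minus old difference (median 0.03). ORAI1, the pore of the store-operated calcium channel of the plasma membrane, was the 1 at an unadjusted p under 0.05, with 22.3 and 57.8 in AD-like, 46.0 to 232 in old and 81.2 to 212 in young adult cortex (AD-like minus old -1.15, SE 0.44, adjusted p = 0.919; old minus young adult -0.54, SE 0.29, adjusted p = 0.849). ORAI2 for old minus young adult (-0.31, SE 0.21) and SPARCL1, a secreted calcium-binding protein, for AD-like minus old (-0.87, SE 0.48) came next in the list.

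The probe sets whose pattern was most like that of CALU_200757_s_at were not relatives of it. Over the 18 arrays the highest Spearman correlations, among 12716 probe sets with 1 symbol, were 0.80 for H2BC5, 0.77 for KAZN, 0.76 for SCAND1, 0.75 for ATG14 and 0.74 for LOC105374690. This ranking carries the group differences on which CALU_200757_s_at was selected, and the study's SAM lists hold the same SCAND1 probe set. After the group means were removed, ITGA5 had 0.89, CACFD1 and ST8SIA3 had 0.77 and 0.76, and KRT222 and COPS3 had 0.76 each. Both rankings take the highest of many values over few arrays. No chance level was computed, so a shared pattern is not read from them. RCN2_201485_s_at had 0.35 (rank 1047) over the arrays as they are and 0.50 (rank 353) with group means removed, while the CALU probe sets CALU_214845_s_at, CALU_200756_x_at and CALU_200755_s_at had -0.08, -0.36 and -0.05 over the arrays as they are and 0.38, 0.16 and -0.16 with group means removed.

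Because CALU and RCN3 are abundant in cells that secrete matrix, markers of such cells were set beside them. Of 9 fibroblast and mural markers 7 passed the filter, with summed signals of 1504 and 1505 in AD-like, 1047 to 2449 in old and 1288 to 1918 in young adult cortex, and 0 were at an unadjusted p under 0.05 in either comparison. Of these 7, 2 had a positive old minus young adult difference (median -0.08) and 3 a positive AD-like minus old difference (median -0.10). COL1A1 had means of 198 in AD-like, 328 in old and 218 in young adult cortex and COL1A2 had 190, 113 and 150, so these partner collagen chains ran in opposite orders, and LUM and PDGFRB did not pass the filter. Of the 11 neuronal markers, 8 had a positive old minus young adult difference (median 0.33) and 4 a positive AD-like minus old difference (median -0.10), with 0 at an unadjusted p under 0.05 in either. The medians of their summed signal, 41388 in AD-like, 55438 in old and 40724 in young adult cortex, were highest in old cortex, as was the mean of CALU_200757_s_at. SNAP25 alone had a mean of 27258 in old cortex. The median sums of astrocyte, choroid plexus and ependyma, and blood markers were also highest in old cortex. Those of oligodendrocyte, microglial, endothelial, and fibroblast and mural markers were highest in young adult cortex. Single genes differed within these lists. SLC1A2, the brightest astrocyte marker, GJA1 and GFAP had their highest mean in old cortex, but AQP4, SLC1A3, ALDH1L1 and S100B their lowest. Of 5 astrocyte markers that passed, 3 had a positive AD-like minus old difference (median 0.49). FOLR1 had its highest mean in old cortex, TTR in young adult, and KL, CLIC6 and FOXJ1 in AD-like cortex. Choroid plexus and ependyma markers varied most between animals, with summed signals of 4272 and 4789 in AD-like, 1105 to 20007 in old and 1536 to 25516 in young adult cortex. The part of cell make-up in the CALU values was not tested.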

How the data were processed

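Total RNA of the right temporal cortex of 18 lemurs was hybridized to HG-U133 Plus 2.0 arrays, 1 per animal. The authors computed a MAS5 signal intensity for each probe set with GCOS 1.2 and scaled each array; the deposited intensity values, linear and unlogged, were used here, and no genome alignment enters them. The study filtered on detection calls, which were not used here. In their place 62 control probe sets were removed and a probe set was kept where its third-highest animal reached a signal limit (lowest kept 147.53), set to keep as many as the study counted as detected. Groups came from the labels and symbols from the platform annotation (12717 kept probe sets had 1 symbol, 584 several and 1610 none).

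Signals were analysed as log2(signal + 16), which understates changes of low signals, in limma 3.58.1 (R 4.3.3) with 1 mean per group over all 18 arrays and Benjamini-Hochberg adjustment over all probe sets fitted; the threshold was 0.05. The methods used SAM, Student tests and analysis of variance; SAM was not run here. The steps were tested on simulated data. CALU is represented by the probe set the study selected, the other genes by their brightest kept probe set, and all member probe sets are given. The number of arrays limits the precision. The members and lists were chosen with earlier results of these data known. Named list genes are the 2 of smallest p per list in old minus young adult and in AD-like minus old; likeness to CALU was ranked by Spearman correlation, with the first 5 named. All 5 symbols are in a lemur gene name table and 4 in the lemur RefSeq table. Offset, filter, normalization, variance model, sex, label number, poly-A controls, GAPDH ratio and each animal were varied in turn. The same settings on the 3 further kept CALU probe sets and on RCN1, RCN3 and SDF4 without the filter, and the correlations without old F4 and F6, were added after seeing the data. Arrays were checked for duplicates (highest Spearman correlation between any pair 0.888).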

Additional observations from a re-analysis of the deposited data

Results flagged for a closer look

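Of 28 sets of values examined (14 probe sets in the old and in the young adult group), 1 held an animal far from the rest of its group, where chance alone marks about 1 in 20. In SDF4_221972_s_at, old F3 had a signal of 1.90, while the other 9 old animals had 34.2 to 135. AD-like F2 (2.96) and young adult F3 (2.97) were also near 0 in it. This probe set did not pass the filter on low signals.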

How the results depend on the processing

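CALU_200757_s_at kept its sign in all 32 settings of each comparison. It was selected on these arrays and its old animals stand fully apart. Leaving out 1 animal therefore could not reverse old minus young adult or AD-like minus old. Old minus young adult was 0.38 to 0.45 with each animal left out in turn and 0.30 (females only) to 0.50 (label number as a replicate block) otherwise. AD-like minus old was -0.54 to -0.47 and -0.60 to -0.41, and AD-like minus young adult -0.12 to -0.06 and -0.18 to -0.0015. Among the other kept CALU probe sets, which the study did not select, CALU_200756_x_at also kept its sign in each comparison, while CALU_214845_s_at and CALU_200755_s_at did not. With the replicate block, AD-like minus old of CALU_214845_s_at was -0.18 and of CALU_200755_s_at -0.30. Old minus young adult of CALU_200755_s_at was -0.14 with array weights and -0.05 without young adult F4.

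RCN2_201485_s_at stayed above the threshold p throughout (adjusted p 0.666 to 0.99998). Its old minus young adult difference was 0.15 to 0.59 with each animal left out, the extremes without young adult M1 and M2, and 0.25 to 0.60 otherwise. AD-like minus old was -0.17 (without AD-like F1) to 0.49 (without AD-like F2) and turned to -0.10 with the replicate block; the cause was not tested. AD-like minus young adult was 0.25 to 0.91, and 1.08 among arrays with poly-A controls.

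The label numbers were not taken as pairs, which asked for every correlation above 0.1: deviations of same-numbered old and young adult animals correlated between 0.06 (F3) and 0.47 (M2), those of AD-like and old at 0.27 (F1) and -0.24 (F2). Of 6 shared numbers, 3 old animals and 2 young adults correlated best with their own. With the block, counts at an adjusted p under 0.05 over all probe sets were 0 for old minus young adult, 3 for AD-like minus old and 2 for AD-like minus young adult. Sex as a covariate gave 0, 9 and 2, and arrays with poly-A controls 0, 14 and 10, where the AD-like group is 1 animal assumed to vary like the other groups. RCN1, RCN3 and SDF4 have no kept probe set, so the settings were run for their brightest probe sets on all 54613, added after seeing the data, with every adjusted p at or above 0.766. With each animal left out, old minus young adult was -0.62 to -0.08 for RCN1_201063_at, -0.17 to 0.30 for RCN3_219102_at and -0.17 to 0.24 for SDF4_224472_x_at. AD-like minus old was -0.42 to 0.51, -1.14 to -0.33 and -0.50 to -0.20, and AD-like minus young adult -0.74 to 0.19, -1.02 to -0.21 and -0.51 to -0.11. RCN1_201063_at turned sign for AD-like minus old with quantile normalization (-0.11) and on linear signals (-0.071), and for AD-like minus young adult among arrays with poly-A controls (0.16). RCN3_219102_at turned for old minus young adult with the GAPDH ratio (-0.055) and SDF4_224472_x_at on linear signals (-0.0039). Signals near the array median limit what their values can show.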
